A study of Mus musculus with 12 samples.

Results

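The genes described are 7 that code for proteins of the sarcomere and its anchors and that muscle raises after stretch or damage: Xirp1, Xirp2, Flnc, Ankrd1, Ankrd2, Csrp3 and Mybph. They were chosen by their known roles, with their counts in these libraries already seen in an earlier analysis, and were found by matching the deposited Ensembl IDs to GENCODE M21. All 7 were found among 54532 counted genes, and all 7 were among the 15715 genes that passed the filter on low counts. Their levels and group differences are therefore given as a description of genes already picked.

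RNA sequencing was done on the gastrocnemius, a calf muscle, of C57BL/6 mice, wild type and between 6 and 7 months old. There were 12 libraries in 4 groups of 3. Naive muscle was the control with no injection named, and saline muscle was injected with saline alone. Injury muscle received bupivacaine, a local anaesthetic toxic to muscle fibres. Needling muscle was injected with bupivacaine and given acupuncture 24 hours later. When the tissue was taken was not given in the sources used here, and nothing stated that the 3 samples of a group came from separate animals. The p-values thus cover no more than the spread among these samples, and that spread may be technical.

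Striated muscle fibres carry force through Z-discs, where actin filaments of neighbouring sarcomeres are tied together and titin is anchored. When this lattice is torn or overstretched, fibres place actin-binding scaffolds at the lesion and remove unfolded filamin with a chaperone machine built on BAG3, HSPB8 and HSP70. Muscle ankyrin repeat proteins and muscle LIM protein sit at titin and the Z-disc and are also found in nuclei, so they are regarded as links between stretch and transcription.

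Xirp1 (ENSMUSG00000079243, chr9:120013755-120023598 on mm10, minus strand) and Xirp2 (ENSMUSG00000027022, chr2:67446002-67526614, plus strand) code for the Xin actin-binding repeat proteins. Flnc (ENSMUSG00000068699, chr6:29433256-29461883, plus strand) codes for the muscle filamin, an actin cross-linker of the Z-disc. Ankrd1 (ENSMUSG00000024803, chr19:36111961-36120099, minus strand) and Ankrd2 (ENSMUSG00000025172, chr19:42036000-42045110, plus strand) code for muscle ankyrin repeat proteins that bind titin. Csrp3 (ENSMUSG00000030470, chr7:48830398-48848033, minus strand) codes for muscle LIM protein, and Mybph (ENSMUSG00000042451, chr1:134193448-134201232, plus strand) for myosin-binding protein H of the thick filament. Exons of Mybph overlap those of Adora1 on the other strand, which held 461 counts over all 12 libraries, and exons of Xirp2 overlap the antisense gene Gm13601, which held 37. Whether counting used strand was not given in the sources used here, so reads of each pair cannot be told apart.

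Promoter sequence is shown because 5 of the 7 genes stood high together in 1 library. The sequences are from RefSeq on GRCm38.p6 and run 5′ to 3′ on the gene's strand. The RefSeq promoter table matched 6 of the 7 genes and held no entry for Xirp1, which is among those 5. Capitals mark matches to MCAT (CATTCC, the element that TEAD factors bind), an E-box (CAGCTG), AP-1 (TGANTCA), a heat shock half-site pair (GAANNTTC) or a MEF2 site, searched on both strands in the 250 bases before the start. The Flnc, Mybph and Xirp2 stretches lie at chr6:29433006-29433255, chr1:134193198-134193447 and chr2:67445752-67446001, all on the plus strand. For Ankrd1, where a GENCODE transcript starts farther upstream, only 30 bases around each match are given, at chr19:36120035-36120064 and chr19:36119945-36119974 on the minus strand.
Flnc promoter: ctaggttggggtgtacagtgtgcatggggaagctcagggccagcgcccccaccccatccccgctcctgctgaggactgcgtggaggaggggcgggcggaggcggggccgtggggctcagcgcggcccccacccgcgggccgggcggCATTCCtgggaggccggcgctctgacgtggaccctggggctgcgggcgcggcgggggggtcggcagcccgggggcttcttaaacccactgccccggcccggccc
Mybph promoter: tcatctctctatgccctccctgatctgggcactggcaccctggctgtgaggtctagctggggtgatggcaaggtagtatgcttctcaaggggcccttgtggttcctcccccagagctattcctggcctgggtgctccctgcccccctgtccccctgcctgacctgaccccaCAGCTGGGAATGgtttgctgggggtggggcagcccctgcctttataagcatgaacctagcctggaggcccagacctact
Xirp2 promoter: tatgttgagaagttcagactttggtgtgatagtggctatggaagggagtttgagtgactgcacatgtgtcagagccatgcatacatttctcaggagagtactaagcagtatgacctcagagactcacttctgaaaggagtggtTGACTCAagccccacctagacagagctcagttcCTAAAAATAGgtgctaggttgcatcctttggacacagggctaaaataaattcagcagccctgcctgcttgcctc
Ankrd1 distal site: cactgccaaaGGAATGaccctctcacattt
Ankrd1 proximal site: taagtctGGAATGAAAATTCacctgcctct

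An MCAT match lay from -210 to -205 and from -123 to -118 before the Ankrd1 start. Others lay from -104 to -99 before the Flnc start of the stretch printed above and from -73 to -68 before the Mybph start. Another Flnc promoter in the table, at chr6:29432903-29433152, held no match to any of these motifs. Of the 32851 promoters in the table, 12.6% held at least 1 such match. In Ankrd1 the proximal MCAT match shared 1 base with GAANNTTC, which 6.69% of all promoters held. In Mybph the match followed directly on an E-box, held by 13.0% of all promoters. Xirp2 held a MEF2 match from -74 to -65 (2.92% of all promoters) and an AP-1 match from -107 to -101 (6.75%). One of the Csrp3 promoters in the table, at chr7:48843672-48843921 inside the gene's own span, held GAANNTTC from -10 to -3. The Csrp3 promoter at chr7:48848052-48848301, before the gene's 5′ end, held no match, and neither did the Ankrd2 window. Neither a CArG box, the serum response factor element (1.47% of all promoters), nor TTCNNGAA (7.17%) was found in the windows of these 6 genes, which says only that those letters are not there. A match is a description of sequence and not a site shown to be bound.

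Library depth was between 16385233 and 27155738 counts. Fast fibre genes marked the tissue, with a summed level of at least 54670 CPM (read counts relative to library size, scaled by TMM to even out library composition) in every library, and all 10 listed genes were counted in each. Within that list Tnnc2 was low throughout in the deposited counts, between 0.431 and 2.05 CPM. Tnni2 and Tnnt3, the other troponin genes of the list, were at no less than 4142 and 8066 CPM. Why the counts of Tnnc2 were so few was not tested. Naive replicate 1 stood apart from the other 11 libraries, so each result that uses naive muscle is given with and without it. There, 295 of 10174 genes with a mean of at least 5 CPM were over 2-fold above the mean of the other 2 naive libraries, which is 2.9%, and 96 were over 4-fold above it, which is 0.944%. Saline replicate 1 and needling replicate 1 also stood apart, with the lowest summed slow fibre marker levels, 174.6 and 520.7 CPM against 1158 to 2461 CPM in the other 10.

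Together the 7 genes took 1.84% of all counts in naive replicate 1 and between 0.345% and 0.584% in each of the other 11 libraries. Xirp1 was at 5591 CPM there, 33.1-fold above the mean of the other 2 naive libraries, and Ankrd1 at 935.6 CPM, 40.9-fold above. By this ratio Ankrd1 was 6th and Xirp1 7th of the 10174 genes, after a small count of 0.5 CPM was added to both sides. Flnc, at 8480 CPM, was 7.79-fold above the other 2 naive libraries, Mybph 3.72-fold and Xirp2 2.39-fold. These 5 genes were highest of all 12 libraries in naive replicate 1. For Xirp1 the next library was 10.1-fold lower, for Ankrd1 5.18-fold, for Flnc 4.40-fold and for Xirp2 2.07-fold, while for Mybph it was only 1.18-fold lower. Csrp3 and Ankrd2 were 1.88-fold and 1.501-fold above the other 2 naive libraries and took the third place among the 12.

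**Figure D1:**
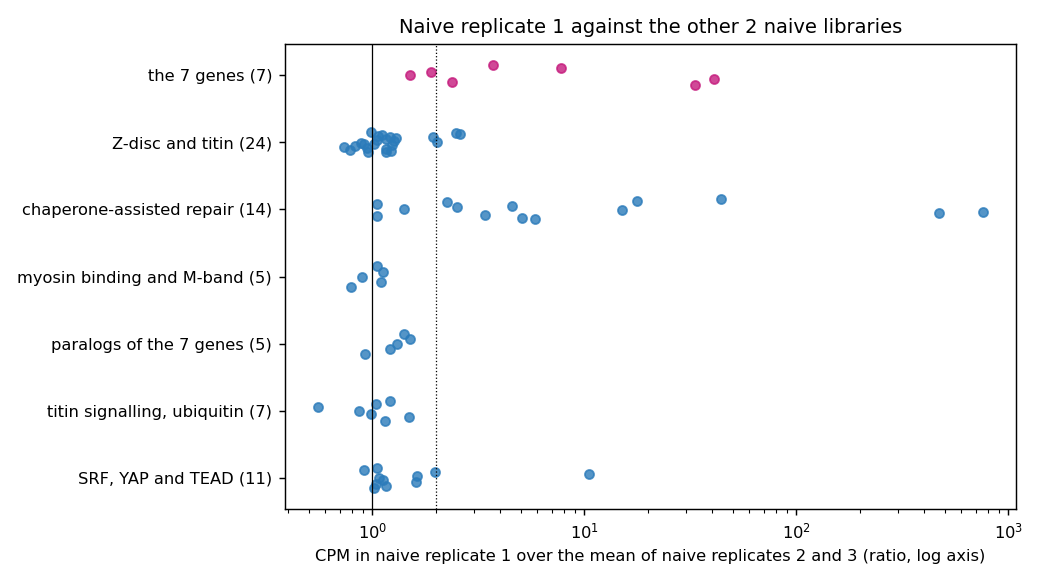
Ratio of the CPM in naive replicate 1 to the mean of naive replicates 2 and 3 (log axis) for each of the 7 genes and each gene of 6 partner lists with a mean of at least 5 CPM. The number of genes plotted is in parentheses, the solid line marks equal levels and the dotted line a 2-fold ratio. Of the 7 genes 5 lie right of the dotted line, as do 11 of 14 chaperone genes, 3 of 24 Z-disc and titin genes and 1 of 11 SRF, YAP and TEAD genes.

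The chaperone partners stood high in the same library. Of 14 chaperone genes, 11 were over 2-fold and 8 over 4-fold above the other 2 naive libraries. Of the 10174 genes 2.9% and 0.944% were. Bag3, which organises the removal of damaged filamin, was 5.85-fold above, its small heat shock partner Hspb8 5.07-fold, Cryab 4.56-fold and Hspb1 15.0-fold. The inducible HSP70 genes Hspa1a and Hspa1b were 472-fold and 759-fold above. The 10 heat shock and immediate early markers share Hspa1a, Hspa1b, Dnajb1, Hspa8 and Hspb1 with the chaperone genes. All 10 were over 2-fold above, and their summed level was 13470 CPM against 1375 to 2136 CPM in the other 11 libraries. What part this has in the levels of the 7 genes was not tested.

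Structural partners showed smaller ratios in that library. Only Cavin4 (2.59-fold), Vcl (2.47-fold), which codes for vinculin, and Pdlim3 (2.03-fold) of 24 Z-disc and titin genes were over 2-fold. None of 5 myosin-binding and M-band genes, 5 paralogs and 7 titin signalling and ubiquitin genes reached 2-fold, and among 11 SRF, YAP and TEAD genes only Ccn1 did, at 10.5-fold. Slow fibre markers went the other way, with 6 of 10 over 2-fold lower and a summed level of 1158 CPM against 2364 and 2461 CPM in the other naive libraries. Their part in the levels of the 7 genes was not tested.

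Xirp1 was at 5591, 170.4 and 167.3 CPM in naive replicates 1 to 3 and at 552.2, 204.0 and 302.7 CPM in saline muscle. It was at 130.8, 392.8 and 194.2 CPM in injury muscle and at 130.3, 282.1 and 176.9 CPM in needling muscle. Past naive replicate 1, the high libraries were saline replicate 1 and injury replicate 2, and saline, injury and needling muscle overlapped. The mean was 1976 ± 3131 CPM (SD, n = 3) in naive muscle and 168.9 ± 2.19 CPM (n = 2) without its first replicate. Without it the order of the means was naive, needling (196.4 ± 77.8 CPM), injury (239.3 ± 137 CPM) and saline (353.0 ± 180 CPM, each n = 3), and no 2 neighbours in that order lay farther apart than the larger of their SDs. With it, naive came highest, with an SD larger than its mean.

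Flnc went with Xirp1 library by library. In CPM it was at 8480, 1092 and 1084 in naive, 1735, 1124 and 1431 in saline, 916.0, 1929 and 1136 in injury and 930.2, 1612 and 1246 in needling muscle. As for Xirp1, saline replicate 1, injury replicate 2 and needling replicate 2 were high within their groups, and the 3 injected groups overlapped. The group means of saline (1430 ± 305 CPM), injury (1327 ± 533 CPM) and needling (1263 ± 341 CPM) muscle lay within 1 SD of each other. Naive muscle had a mean of 3552 ± 4268 CPM, and of 1088 ± 5.17 CPM without replicate 1, which was below every saline library. Pearson's r between log2 CPM of Xirp1 and Flnc was 0.989 over 12 libraries and 0.935 over the 11 without naive replicate 1, points that share library depth and composition.

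Xirp2, a gene that MEF2 factors switch on in muscle and that is long and abundant, behaved otherwise. It was at 6639, 3211 and 2353 CPM in naive, 2767, 1918 and 2239 CPM in saline, 1873, 1800 and 1934 CPM in injured muscle and, after needling, 1638, 1712 and 1820 CPM. All injury and needling libraries lay below both of the remaining naive libraries, and needling muscle below every saline library. Its replicates were close, with means of 2308 ± 429 CPM (saline), 1869 ± 67.3 CPM (injury) and 1723 ± 91.4 CPM (needling). The naive mean was 4068 ± 2268 CPM, and 2782 ± 606 CPM without replicate 1, so the order naive, saline, injury, needling held either way. Naive and saline means differed by less than the larger SD. Saline and injury, and injury and needling, differed by a little more than the larger SD, and their single libraries overlapped.

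Ankrd1 was at 935.6, 19.94 and 25.82 CPM in naive muscle and at 76.34, 24.71 and 51.21 CPM in saline muscle. Injury muscle had 61.48, 95.07 and 52.61 CPM, and needling muscle 95.07, 180.8 and 81.43 CPM. Without naive replicate 1, naive muscle was lowest, with 22.9 ± 4.16 CPM (n = 2), and the means of saline, injury and needling muscle were 50.8 ± 25.8, 69.7 ± 22.4 and 119.1 ± 53.9 CPM (n = 3 each). Every needling library was above every saline library, and every injury library above both remaining naive libraries, whereas saline overlapped with injury and injury with needling. With naive replicate 1, the naive mean of 327.1 ± 527 CPM was the highest and its libraries spanned all other groups.

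Ankrd2, the ankyrin repeat protein of slow fibres in mouse, and Csrp3 formed a second pair. Ankrd2 was at 308.0, 175.1 and 235.2 CPM in naive, 51.58, 235.2 and 202.2 CPM in saline, 145.5, 377.1 and 172.7 CPM in injured muscle and, after needling, 58.80, 370.1 and 238.7 CPM. Csrp3 was at 191.5, 99.47 and 104.1 CPM in naive, 52.54, 127.9 and 120.6 CPM in saline, 80.04, 229.9 and 114.8 CPM in injured muscle and, after needling, 47.66, 267.0 and 189.4 CPM. For both genes saline replicate 1 and needling replicate 1 were the lowest libraries and replicate 2 of injury and needling muscle were the highest, so all groups overlapped. In needling replicate 1 Ankrd2 was at 0.193 and Csrp3 at 0.209 of the mean of the other 2 needling libraries, the 3rd and the 5th lowest such ratios of 10174 genes. Saline replicate 1 and needling replicate 1 were also the libraries with the lowest slow fibre marker sums given above. The next lowest sums, 1158 CPM in naive replicate 1 and 1190 CPM in injury replicate 2, went with high levels of both genes. Ankrd2 ranked 3rd and 1st of all libraries there, and Csrp3 3rd and 2nd. The part of slow fibre content in the levels of both genes was not tested.

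Group means of Ankrd2 ran from 163.0 ± 97.9 CPM in saline muscle to 239.4 ± 66.6 CPM in naive muscle (205.1 ± 42.5 CPM without replicate 1). Those of Csrp3 ran from 100.3 ± 41.6 CPM in saline to 168.0 ± 111 CPM in needling muscle, with 131.7 ± 51.8 CPM in naive muscle (101.8 ± 3.31 CPM without replicate 1). No 2 groups differed by more than the larger of their SDs for either gene, with or without naive replicate 1. The correlation of log2 CPM between both genes was 0.941 over 12 and 0.938 over 11 libraries.

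Mybph was at 240.5, 62.21 and 66.95 CPM in naive, 204.5, 71.31 and 101.3 CPM in saline, 76.72, 87.00 and 135.8 CPM in injured muscle and, after needling, 150.4, 150.2 and 129.3 CPM. The needling libraries were close together (143.3 ± 12.1 CPM), whereas naive and saline replicate 1 were the highest of the 12. Without naive replicate 1 the naive level was lowest, 64.6 ± 3.35 CPM (n = 2), followed by injury with 99.9 ± 31.6 CPM and saline with 125.7 ± 69.9 CPM. The saline, injury and needling groups overlapped.

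**Figure D2:**
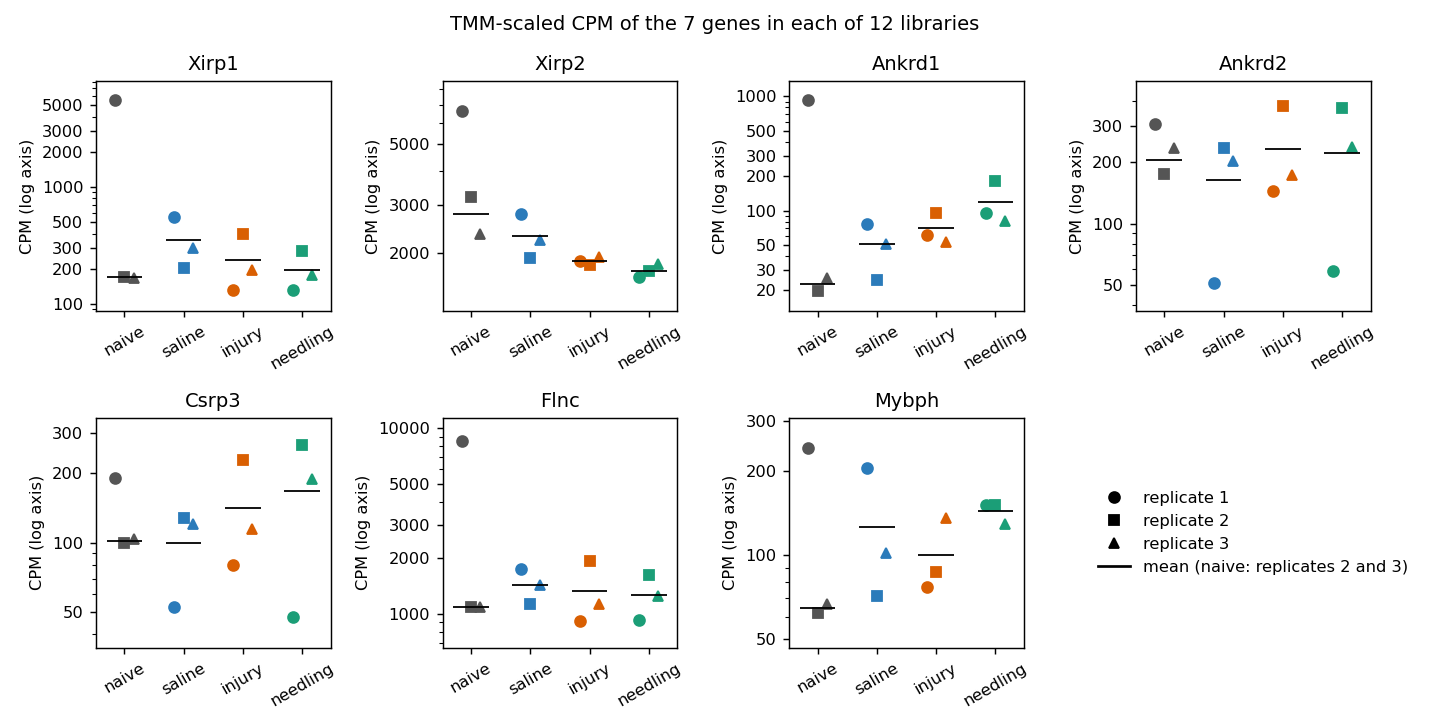
TMM-scaled CPM (log axis, with a different range per gene) of each of the 7 genes in the 12 libraries, by group. Symbols mark the replicate number and bars the group mean, for naive muscle without replicate 1. Naive replicate 1 is the highest library for Xirp1, Xirp2, Ankrd1, Flnc and Mybph, while saline and needling replicate 1 are the lowest for Ankrd2 and Csrp3.

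Levels of different genes were set side by side in FPKM, which is per kilobase of transcript. In naive replicates 2 and 3 the highest of the 7 was Xirp2 in replicate 2 (269.2 FPKM) and Ankrd2 in replicate 3 (210.3 FPKM). The lowest in both was Ankrd1, at 11.3 and 14.4 FPKM. In naive replicate 1 the order was Xirp1 (959.9 FPKM), Flnc (904.2), Xirp2 (555.6), Ankrd1 (531.4), Ankrd2 (280.7), Mybph (103.5) and Csrp3 (71.9 FPKM). Xirp1, at 29.3 and 28.2 FPKM in the other naive libraries, thus moved from the fifth or the sixth place to the highest of the 7. In needling replicates 1 to 3 Ankrd1 was at 53.8, 103.0 and 45.8 FPKM, above Xirp1 in each (22.3, 48.6 and 30.1 FPKM). It was also above Xirp1 in injury replicate 1 (34.8 against 22.4 FPKM). Ankrd1 was below Xirp1 in injury replicates 2 (53.8 against 67.2 FPKM) and 3 (29.6 against 33.0 FPKM). The same held in every saline and every naive library.

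Across libraries some other pairs depended on naive replicate 1. The correlation of log2 CPM between Xirp1 and Xirp2 was 0.829 over 12 libraries and 0.248 over 11, and that between Xirp1 and Ankrd1 was 0.794 and 0.334. Xirp2 and Ankrd1 had a correlation of 0.474 over 12 libraries and of -0.618 over 11. Ankrd1 and Mybph changed less, from 0.806 over 12 libraries to 0.743 over 11. All these are descriptions over libraries that include the group differences.

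**Figure D3:**
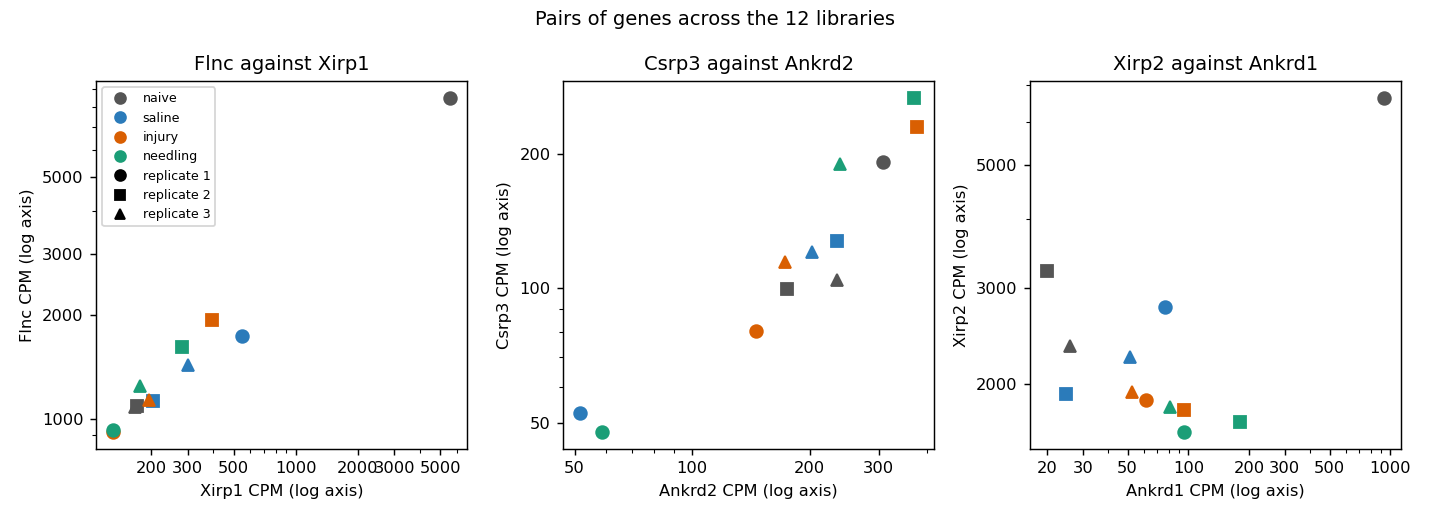
CPM (log axes) of 3 pairs of genes in the 12 libraries, coloured by group, with symbols for the replicate number. Flnc and Xirp1 (r of log2 CPM 0.989, 0.935 without naive replicate 1) and Csrp3 and Ankrd2 (0.941 and 0.938) lie along a line, while Xirp2 and Ankrd1 (0.474 and -0.618) join high only in naive replicate 1.

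Genes most like each of the 7 were sought among 9806 protein-coding genes by Pearson's r of log2 CPM. For Xirp1 the closest was Usp28, a deubiquitinase, over 12 libraries (r = 0.991) and over 11 (0.961). For Flnc they were Hspb1 and Klhl40 (both 0.989), the latter a thin filament stabiliser of muscle, which over 11 libraries stood at 0.939 and 0.941. Ankrd1 was most like Igf2bp2, an RNA-binding protein (0.989 and 0.972). Ankrd2 was most like Gbe1, the glycogen branching enzyme (0.958 and 0.955). Xirp1, Ankrd1 and Ankrd2 thus kept their closest gene without naive replicate 1, and Hspb1 and Klhl40 stayed the closest to Flnc. For Csrp3 the first place went from Myl12a (0.925) to the cardiovascular small heat shock gene Hspb7 (0.976). That of Mybph changed as well, from Tmem39a (0.948) to Fem1b (0.968). Xirp2 was most like Ube2f over 12 libraries (0.983).

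Saline muscle was first compared with naive muscle. With all 12 libraries none of the 7 genes passed an adjusted p of 0.05 in edgeR's quasi-likelihood test, as none of all 15715 genes did (0%), and at an unadjusted p under 0.05 there was 1 of 7, Xirp2, against 11.9% of all genes. DESeq2 and limma on FPKM called none of the 7 either, though DESeq2 gave no adjusted p for Xirp1 and Ankrd1 in any comparison. Of all 15715 genes DESeq2 called 157 and limma 0. The fitted log2 differences of Xirp1, Ankrd1 and Flnc were -2.49 ± 1.27 (SE), -2.69 ± 1.32 and -1.31 ± 0.73. Without naive replicate 1 they were 1.08 ± 0.56, 1.16 ± 0.52 and 0.41 ± 0.31, on the other side of 0, and that of Mybph was 0.98 ± 0.40 in place of 0.03 ± 0.55.

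Without that library none of the 7 was called either, beside 1 of 16166 genes (0.00619%), and 1 of 7, Mybph, was under an unadjusted p of 0.05, where 11.4% of all genes were. Xirp1, Flnc and Mybph were then higher in all 3 saline libraries than in both naive libraries, which held for 18% of all genes. With 12 libraries none of the 7 was free of overlap in either direction, against 9.53% of all genes higher and 7.01% lower. The median log2 difference of the 7 was -0.82 with naive replicate 1 and 0.41 without it, beside 0.01 and 0.05 over all genes.

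Bupivacaine injury against saline muscle left all 7 genes without a call in edgeR's test, in which 669 genes or 4.26% were called. DESeq2, which gave no adjusted p for Xirp1 and Ankrd1, and limma called none of the 7. Of 15715 genes DESeq2 called 1053 and limma on log2(FPKM + 1) called 450. None of the 7 was under an unadjusted p of 0.05 in edgeR, as 15.7% of all genes were. Ankrd1 stood at a log2 difference of 0.46 ± 1.25, Xirp1 at -0.56 ± 1.21, Xirp2 at -0.31 ± 0.29 and Flnc at -0.11 ± 0.72. With 1 library left out Xirp1 ranged from -1.12 (without injury replicate 2) to -0.05 (without saline replicate 1). All 7 overlapped between the groups, where 14.1% of all genes were higher and 9.72% lower without overlap. The spread from naive replicate 1 enters these SEs, since the 12 libraries share 1 estimate of it. Without that library the SE of Ankrd1 was 0.44 and that of Xirp1 0.48, and again none of the 7 was called, beside 5.62% of all genes. In bulk muscle fewer cells of a type and less RNA per cell cannot be told apart, and summed macrophage markers were 739.1 to 1199 CPM in injury against 208.6 to 444.6 CPM in saline muscle, with all 10 genes of that list counted in every library. Summed fast fibre markers were 79080 to 107500 CPM against 111000 to 128700 CPM, and the part of either in these differences was not tested.

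Injury against naive muscle gave the one call in the shared fit. Xirp2 fell to 1869 ± 67.3 CPM in injury from 4068 ± 2268 CPM in naive muscle, a log2 difference of -1.12 ± 0.30 with an adjusted p of 0.0208 in edgeR's test. That is 1 of 7 genes called, beside 17.8% of all genes called and 5.54% called lower. Summed fast fibre markers were 79080 to 107500 CPM in injury against 118700 to 151600 CPM in naive muscle, and macrophage markers 739.1 to 1199 against 103.6 to 197.1 CPM, with their part in the fall of Xirp2 not tested. Xirp1 and Xirp2 were under an unadjusted p of 0.05, as 32.6% of all genes were. Without naive replicate 1 the difference was -0.52 ± 0.19 and the adjusted p 0.0800, so the call ended, and none of the 7 was called beside 15.2% of all genes. Over all settings the adjusted p of Xirp2 lay between 0.00126 and 0.0878, and it was also over 0.05 without injury replicate 1 (0.0682), 2 (0.0763) or 3 (0.0582) and with no filter on low counts (0.0878).

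Xirp2 was the one gene of the 7 whose injury and naive libraries did not overlap with all 12, lower as in 15.9% of all genes. Ankrd1 was -2.23 ± 1.29 with naive replicate 1 and 1.66 ± 0.53 without it, with adjusted p of 0.273 and 0.0682 in edgeR. Without it Ankrd1 and Xirp2 were under an unadjusted p of 0.05, as 30.7% of all genes were. Without that library Ankrd1 and Mybph were higher in all injury than in both naive libraries, which 27.9% of all genes were, and Xirp2 was lower, which 18.6% were. Xirp1 and Flnc also changed sign, from -3.05 ± 1.30 to 0.56 ± 0.55 and from -1.42 ± 0.74 to 0.34 ± 0.31. So did Mybph, from -0.30 ± 0.55 to 0.68 ± 0.39, and Ankrd2, from -0.05 ± 0.72 to 0.23 ± 0.84. The median log2 difference of the 7 was -1.12 with naive replicate 1 and 0.53 without it, beside -0.02 and 0.05 over all genes.

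Needling against injury muscle is the contrast that the study's title names. None of the 7 genes was called by edgeR's test on 12 libraries, which called none of the 15715 genes (0%) but put 16.6% under an unadjusted p of 0.05. No member was under that unadjusted p. DESeq2, which gave no adjusted p for Xirp1 and Ankrd1, and limma called none of the 7. Of 15715 genes DESeq2 called 558 and limma on log2(FPKM + 1) called 161. Ankrd1 had a log2 difference of 0.77 ± 1.25, Mybph of 0.52 ± 0.55, Csrp3 of 0.25 ± 0.64 and Xirp2 of -0.12 ± 0.29. Csrp3 turned to -0.26 without needling replicate 2 and reached 0.79 without injury replicate 2, and Ankrd1 went to 0.34 and 1.06 without the same libraries. None of the 7 was free of overlap, while 15.6% of all genes were higher and 7.27% lower without overlap. Scaling without naive replicate 1 put all needling libraries below all injury libraries for Xirp2, as for 10.2% of all genes, and called none of the 7.

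Injury and needling libraries of the same number deviated together over all genes, so they were also compared within numbers. The labels give no origin for such a pairing. Needling over injury, Ankrd1 stood at 1.55, 1.90 and 1.55 in numbers 1 to 3, above 1 in 3 of 3. Xirp2 stood at 0.875, 0.952 and 0.941, below 1 in 3 of 3. Xirp1 stood at 0.996, 0.718 and 0.911, while Flnc, Ankrd2, Csrp3 and Mybph lay on both sides of 1. Fitted with a replicate block on these 6 libraries alone, Ankrd1 had a log2 difference of 0.70 ± 0.08 and an adjusted p of 0.000570 in edgeR's test, 1 of 7 genes called where 19.6% of 15497 genes were called and 12.5% were called higher. Its adjusted p was 0.383 to 0.975 under every other setting that gave one. The 6-library fit has 2 residual degrees of freedom. Xirp1 (-0.24 ± 0.10, adjusted p 0.135) and Mybph (0.53 ± 0.23, adjusted p 0.191) did not pass in it. Summed macrophage markers were 1724 to 2374 CPM in needling against 739.1 to 1199 CPM in injury muscle. Summed fast fibre markers were 54670 to 86260 CPM against 79080 to 107500 CPM. The part of either in these ratios and differences was not tested.

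Needling against saline muscle called 4647 genes, 29.6% of those tested, and none of the 7 in edgeR's test. None was under an unadjusted p of 0.05 with 12 libraries, where 41.4% of all genes were. DESeq2, which gave no adjusted p for Xirp1 and Ankrd1, and limma called none of the 7. Of 15715 genes DESeq2 called 4861 and limma on log2(FPKM + 1) called 4520. Ankrd1 stood at 1.23 ± 1.26 and Xirp2 at -0.42 ± 0.29. Without naive replicate 1 these were 1.24 ± 0.45 and -0.42 ± 0.17, with adjusted p of 0.0643 and 0.0756 in edgeR and both under an unadjusted p of 0.05, as 42.9% of all genes were. None of the 7 was called there beside 31.4% of all genes. Both were free of overlap with all 12 libraries, Ankrd1 higher as in 26.1% of all genes and Xirp2 lower as in 22.1%. The other 5 overlapped, with Csrp3 at 0.74 ± 0.64, Xirp1 at -0.85 ± 1.22, Ankrd2 at 0.45 ± 0.72, Mybph at 0.19 ± 0.55 and Flnc at -0.18 ± 0.72. Saline muscle is shared by 3 of the 5 comparisons and injury muscle likewise, so their values are not independent.

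**Figure D4:**
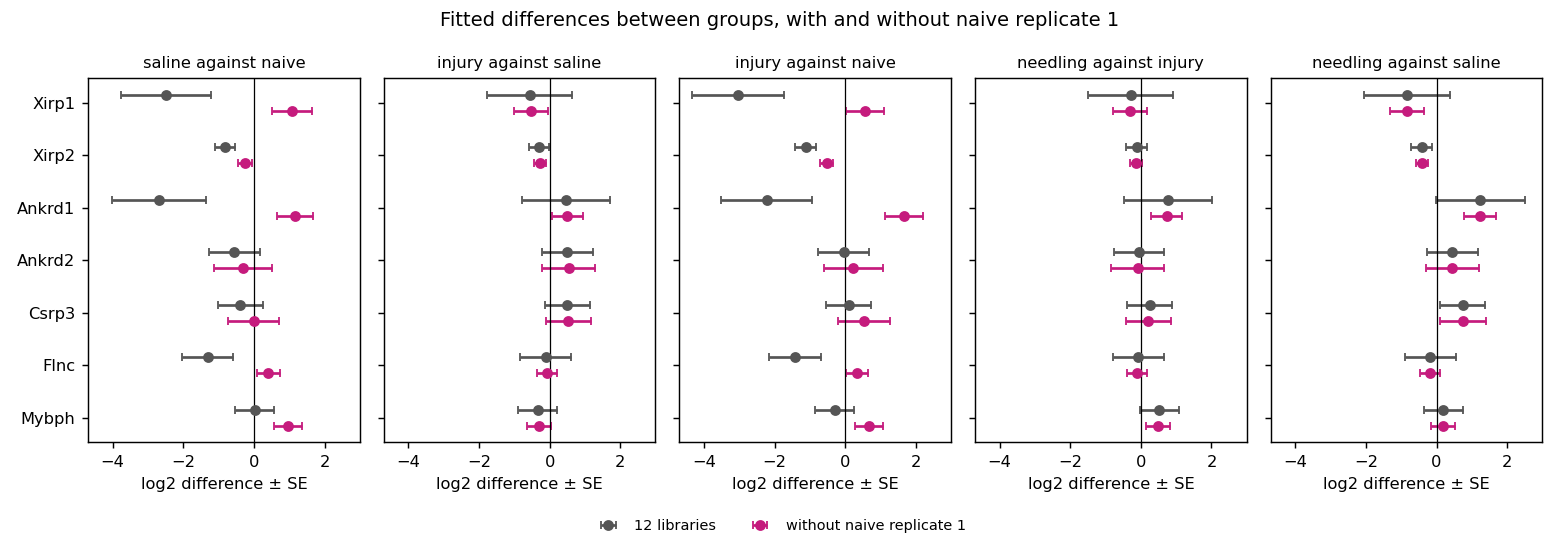
Fitted log2 differences with SE of the 7 genes in 5 comparisons, from edgeR's fit of 12 libraries (grey) and of the 11 without naive replicate 1 (magenta). Both comparisons with naive muscle move Xirp1, Ankrd1 and Flnc across 0, while the 3 comparisons without it keep nearly the same values with shorter SEs for these genes.

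Partner genes of the same structures were counted in the 12-library fit, by edgeR's adjusted p. In needling against saline muscle 11 of 26 Z-disc and titin genes fell and none rose, where 11% of all tested genes were called lower and 18.5% higher. The list had a median of -0.39 on the log2 scale beside -0.04 over all genes. Fhl3, a LIM protein, fell from 225.6 ± 28.3 to 143.7 ± 19.0 CPM (adjusted p 0.00747 in edgeR), Myoz3, a calcineurin-binding Z-disc protein of fast fibres, from 86.0 ± 7.79 to 50.4 ± 14.4 CPM (0.0131) and Synpo2, an actin-binding Z-disc protein, from 881.7 ± 75.5 to 614.0 ± 102 CPM (0.0199). Of 5 tested myosin-binding and M-band genes 1 fell, the M-band gene Myom1, from 1379 ± 54.4 to 909.4 ± 209 CPM. Of 7 titin signalling and ubiquitin genes 3 fell, the titin-bound protease Capn3 and the ligases Trim54 and Trim55, and none rose, to be read against the same 11% and 18.5%. In the same comparison summed fast fibre markers were 54670 to 86260 CPM in needling against 111000 to 128700 CPM in saline muscle, and macrophage markers 1724 to 2374 against 208.6 to 444.6 CPM, parts that were not tested.

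Of 5 paralogs of the 7 genes, 2 rose in needling against saline muscle and none fell, where 18.5% of all genes were called higher, and with so few genes the count is no result about the paralogs as a group. Csrp2, the LIM protein of smooth muscle, rose from 3.71 ± 0.73 to 13.8 ± 3.71 CPM (log2 difference 1.89 ± 0.30, adjusted p 0.000533 in edgeR) and Flna, the filamin of non-muscle cells, from 84.9 ± 10.4 to 188.6 ± 22.7 CPM (1.15 ± 0.20, adjusted p 0.000921). Ankrd23 and Csrp1 did not pass. Csrp2 also rose in injury against saline muscle (to 8.22 ± 2.84 CPM, log2 difference 1.15 ± 0.30, adjusted p 0.0472), where 4.19% of all genes were called higher, and both rose in injury against naive muscle, where 12.3% were. Whether their muscle-fibre relatives Csrp3 and Flnc differ from them in response was not tested.

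Of 12 genes of the SRF, YAP and TEAD group, which read actin tension, 2 rose and 2 fell in needling against saline muscle. That is near the 18.5% of all genes called higher and the 11% called lower, so the counts are no result about the group. Ccn2, a matrix signalling protein and YAP target, rose from 16.4 ± 3.64 to 46.6 ± 18.5 CPM (adjusted p 0.00876 in edgeR) and Ajuba from 3.84 ± 0.64 to 7.26 ± 0.89 CPM (0.00819). Summed fibroblast and matrix markers were 3934 to 5432 CPM in needling against 1562 to 2059 CPM in saline muscle, all 10 counted in every library, and their part in the rise of Ccn2 was not tested. Tead1 fell from 272.0 ± 15.6 to 191.9 ± 33.7 CPM and Srf from 110.4 ± 18.4 to 79.8 ± 11.7 CPM. None of the 14 chaperone genes passed there with 12 libraries, and without naive replicate 1 Hsp90aa1 and Dnajb1 rose and Unc45b, a myosin chaperone, fell, beside 19.3% of all genes called higher and 12.1% lower. No partner gene of any list passed in saline against naive muscle or in needling against injury muscle, with or without naive replicate 1, and their smallest adjusted p was 0.323 and 0.135 with it. The chaperone median in saline against naive muscle went from -0.99 with naive replicate 1 to 0.10 without it. In injury against naive muscle Myoz3 fell, Tead1 fell with 12 libraries alone, and Csrp2 and Flna rose. Without naive replicate 1 Hsp90aa1 rose there as well, and Flna rose in injury against saline muscle.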

How the data were processed

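Gastrocnemius RNA of 12 mouse samples was sequenced, 3 in each of 4 groups named by the labels. Per the labels' protocols, RNA was extracted with Trizol and libraries were made with a NEBNext Ultra kit. The submitters' processing notes name HISAT2 2.0.5 as tool and mm10 as build. Sources used here did not give the counting tool, its strand setting or its annotation. The table of counts deposited by the authors holds whole reads per gene ID, of which 54495 of 54532 matched a GENCODE M21 symbol. The deposited FPKM values equal counts over gene length and a scale per sample that matched median-ratio size factors, not library totals, so they are not relative to each library's total.

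Counts were tested in R 4.3.3 with the quasi-likelihood test of edgeR 4.0.16, with TMM scaling, edgeR's filter by group (15715 genes), robust dispersion and a mean per group over all 12 libraries. Benjamini-Hochberg adjusted p under 0.05 over all genes tested, two-sided, was a call. The fit was repeated without naive replicate 1 (16166 genes). CPM are TMM-scaled, and correlations were taken on log2 CPM after adding a prior count of 2. The steps were tested on simulated counts in which genes were changed in the injury group alone. Those counts held no outlier library and no pairing, so they cannot show how the steps treat either.

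The 7 genes, the partner and marker lists and the comparisons were chosen with earlier results of these data known. All 7 genes are named. Of each partner list the text gives the counts passing and may name up to 4 genes with the smallest p in a comparison. For likeness, the 3 genes with the highest r were taken among protein-coding genes with a mean of at least 5 CPM, of which the closest are printed. A few genes that these rules take are not reported here.

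Whether replicate numbers pair samples was checked by correlating each library's deviation from its group mean. Injury and needling libraries of the same number stood at 0.238, 0.485 and 0.422, each over the 0.1 asked for, and no other pair of groups met this for all 3 numbers. The pairing comes from the data, since the labels give no origin for it.

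Other settings were DESeq2 1.42.0, median-ratio factors, no filter (30008 genes), a stricter filter of 1 CPM in at least 6 libraries (13310 genes), limma 3.58.1 on log2(FPKM + 1) and log2(FPKM + 0.1), replicate blocks and leaving out each library.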

Additional observations from a re-analysis of the deposited data

How the results depend on the processing

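Of the log2 differences of the 7 genes, 244 values under other settings and 410 with 1 library left out lay within 1 SD between replicates of the value reported. That SD is wide, and few directions are settled: with 1 library left out 20 of the 35 differences took the opposite sign, 13 of them without a library other than naive replicate 1, and 33 took the opposite sign or moved over 1.5 times. Over 1 SD away were 10 values without naive replicate 1, for Xirp1, Xirp2, Ankrd1, Flnc and Mybph in the comparisons with naive muscle. Another 8 were from limma on FPKM, for Xirp1 and Ankrd1 in the same comparisons. Among the 7 genes, calls changed in injury against naive muscle, where 1 became 0 with no filter and 0 to 1 were called with 1 library left out. They changed also in needling against injury muscle, where the replicate block on those 6 libraries called 1. The block over all 12 libraries changed no call of the 7 genes. Leaving out any 1 library called 0 of the 7 in the other 4 comparisons.

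Counts over all genes moved more. Saline against naive muscle went from 0 to 157 genes in DESeq2, 3 with no filter and 0 to 25 with 1 library left out. Injury against saline muscle went from 669 to 1053 in DESeq2 and to between 0 and 1098 with 1 library left out, 0 being without injury replicate 1. Injury against naive muscle (2796) ranged from 1356 to 2966 and needling against saline muscle (4647) from 2542 to 5073 with 1 library left out. Needling against injury muscle went from 0 to 558 in DESeq2, 49 with no filter, 161 in limma on log2(FPKM + 1), 3041 in the replicate block on 6 libraries, and 0 to 1 with 1 library left out. The cause was not tested. The lowest count of any of the 7 genes in a library was 374.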
